A study of Mus musculus with 8 samples.

Results

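The calcium-binding buffer and sensor genes of cord neurons described here are Calb1, Calb2, Pvalb, Calm2, Calm3, Hpca and Ncald. They were found as the rows of the deposited value table whose annotated gene symbol is the name of a member. Of the 7 genes, 5 were measured, each by 1 row, out of 22180 genes with a row of their own. Calm2 and Calm3, which both encode calmodulin, were matched to no annotated row and were not analysed here.

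The samples were ventral lumbar spinal cord of FVB mice, the control strain, and of MLC/SOD1G93A mice on the FVB strain, with 4 arrays per genotype. All samples came from mice of 120 days. The transgene, a mutant SOD1 gene, was driven by a myosin light chain promoter and so was restricted to skeletal muscle. The cord was assayed for changes that come with a mutant protein made in another tissue, and the labels do not say whether each array is a separate animal.

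These proteins bind calcium through EF-hands, loops between helices that hold the ion. Calbindin (Calb1), calretinin (Calb2) and parvalbumin (Pvalb) are buffers that shorten and localise calcium signals in neurons. Hippocalcin (Hpca) and neurocalcin delta (Ncald) are neuronal calcium sensors, which move to membranes when they bind calcium, and calmodulin passes the signal on to kinases, phosphatases and cyclases. In the cord, calbindin marks Renshaw cells and many dorsal horn neurons, calretinin marks dorsal horn and ventral interneurons, and parvalbumin marks proprioceptive sensory neurons and some interneurons. Most limb motor neurons are known for low levels of calbindin and parvalbumin.

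The 5 measured genes had nearly the same signal in both genotypes. On the log2 scale the differences, MLC/SOD1G93A minus FVB, ran from −0.06 for Pvalb to 0.19 for Calb1, and all 5 genes overlapped between the genotypes. None passed an adjusted p under 0.05, at which 0% of the 41345 transcript clusters were called. An unadjusted p under 0.05 was reached by 0 of the 5 genes, against 6.70% of all transcript clusters, and an unadjusted p under 0.05 with a fold over 1.5 by 0 of 5, against 0.970%. Groups of arrays that did not overlap were found for 0 of 5 genes, against 4.21% of all transcript clusters. A transcript cluster is the array's unit of summary, its log2 signal is a summary of several probes, and p-values here are from limma with Benjamini-Hochberg adjustment over all clusters. Of the clusters, 16004 carry no gene symbol. Over the 22180 genes taken by 1 cluster each, 6.17% had an unadjusted p under 0.05.

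**Figure D1:**
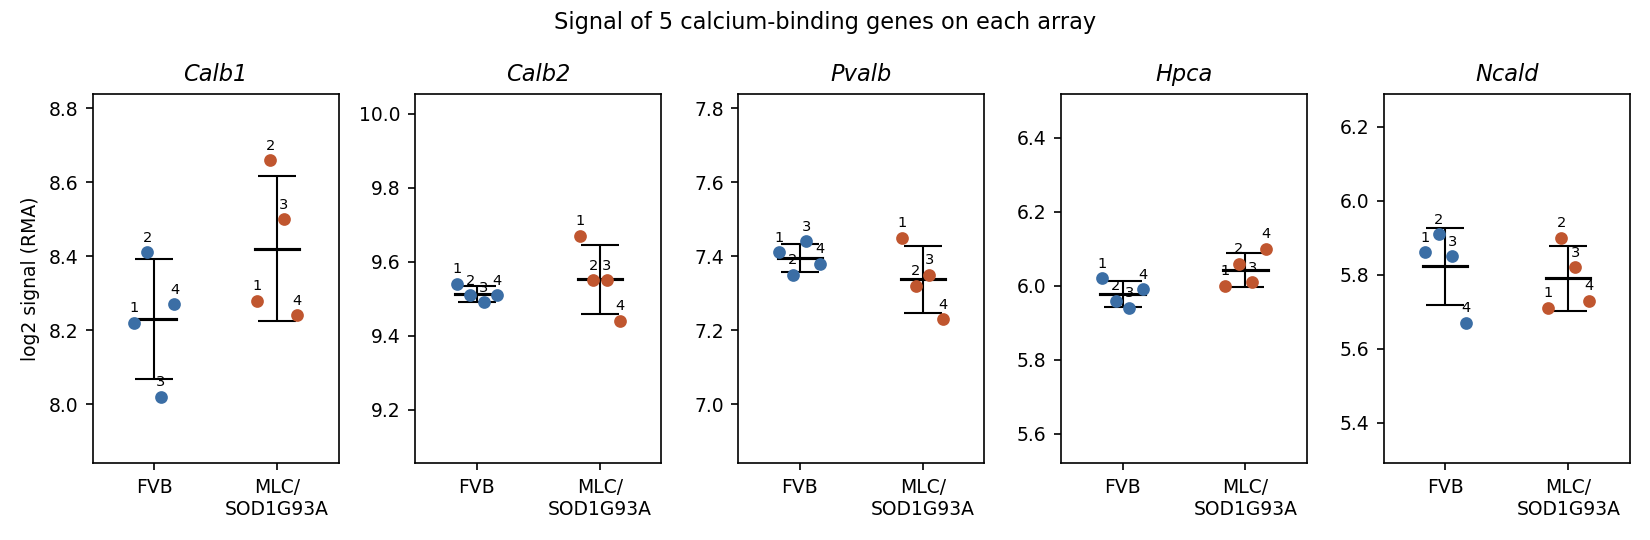
Log2 signal of each measured gene on the 8 arrays (points, numbered by replicate), with the genotype mean and SD (bars). Every panel spans 1 log2 unit around its own gene, so heights compare arrays within a panel and not genes with each other. All 5 genes overlap between FVB (blue) and MLC/SOD1G93A (orange), and Calb1 has the widest scatter, from 8.02 to 8.66.

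Calb1 (transcript cluster 17411966), the calbindin buffer gene, varied most. Its log2 signal was 8.22, 8.41, 8.02 and 8.27 on FVB replicates 1 to 4. On MLC/SOD1G93A replicates 1 to 4 it was 8.28, 8.66, 8.50 and 8.24. The FVB range of 8.02 to 8.41 held MLC/SOD1G93A replicates 1 and 4, while replicates 2 and 3 lay above every FVB array. The mean went from 8.23 ± 0.16 to 8.42 ± 0.20 (SD, n = 4), a log2 difference of 0.19 ± 0.12 (SE) or 1.14-fold (limma adjusted p = 0.813). The exact two-sided permutation test of these 8 arrays gave p = 0.171, and the smallest p that 4 against 4 allows is 0.0286. Without MLC/SOD1G93A replicate 2 the difference was 0.107, and without FVB replicate 2 or MLC/SOD1G93A replicate 4 it was 0.247. The 95% interval of the fold ran from 0.939 to 1.38.

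Calb2 (transcript cluster 17512872), which encodes calretinin, was at 9.54, 9.51, 9.49 and 9.51 on FVB replicates 1 to 4. The MLC/SOD1G93A arrays had 9.67, 9.55, 9.55 and 9.44. The MLC/SOD1G93A arrays therefore reached both above and below all FVB arrays, with replicate 1 the highest of the 8 and replicate 4 the lowest. The means were 9.51 ± 0.022 and 9.55 ± 0.092 (SD, n = 4), a log2 difference of 0.04 ± 0.07 (SE, limma adjusted p = 0.94, exact permutation p = 0.571). Without MLC/SOD1G93A replicate 1, the difference was 0.00059.

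Pvalb (transcript cluster 17318942), the parvalbumin gene, had log2 signals of 7.41, 7.35, 7.44 and 7.38 in FVB cord. In MLC/SOD1G93A cord the signals were 7.45, 7.32, 7.35 and 7.23. The highest and the lowest of the 8 values were both MLC/SOD1G93A, replicates 1 and 4. The mean went from 7.39 ± 0.041 to 7.34 ± 0.091 (SD, n = 4), a log2 difference of −0.06 ± 0.07 (SE, limma adjusted p = 0.915, exact permutation p = 0.343). The fold of MLC/SOD1G93A over FVB was 0.962, with a 95% interval from 0.859 to 1.08. 

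Hpca (transcript cluster 17430307), the hippocalcin gene, was at 6.02, 5.96, 5.94 and 5.99 on the FVB arrays. It was at 6.0, 6.06, 6.01 and 6.10 on the MLC/SOD1G93A arrays. All 4 MLC/SOD1G93A values lay above the FVB mean, and 2 of them, replicates 1 and 3, lay below FVB replicate 1. The log2 difference was 0.06 ± 0.06 (SE), from 5.98 ± 0.036 to 6.04 ± 0.045 (SD, n = 4), which is 1.05-fold (limma adjusted p = 0.885, exact permutation p = 0.0857). Hpca was also the steadiest member, with a pooled within-genotype SD of 0.0407, lower than in all but 0.822% of transcript clusters.

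Ncald (transcript cluster 17316574), the neurocalcin delta gene, had log2 signals of 5.86, 5.91, 5.85 and 5.67 on the FVB arrays. The MLC/SOD1G93A arrays had 5.71, 5.90, 5.82 and 5.73, all inside the FVB range. The means were 5.82 ± 0.11 and 5.79 ± 0.085 (SD, n = 4), a log2 difference of −0.03 ± 0.08 (SE, limma adjusted p = 0.959, exact permutation p = 0.714). The caudal Hox genes, which mark the level of the cord along the body, had a mean (11 genes) of 5.61, 5.55, 5.17 and 6.25 on the FVB arrays and 6.25, 6.03, 6.59 and 6.35 on the MLC/SOD1G93A arrays. Ncald was lowest on FVB replicate 4, the FVB array with the highest of these means. That array was also the only FVB array with a high signal of Xist, an RNA of female cells (10.41). When the caudal Hox mean was entered into the fit, the Ncald difference turned to 0.0844. With Xist entered instead it was −0.00896. The part of the cord level or of Xist in Ncald was not tested. Of the 11 caudal Hox genes, 10 were higher on average in MLC/SOD1G93A cord. By limma, 8 were higher at an unadjusted p under 0.05, or 72.7%, against 6.70% of all transcript clusters. A fit with this mean as a covariate thus cannot tell cord level and genotype apart.

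The intervals bound what could have been missed. The 95% interval of the log2 difference was −0.09 to 0.47 for Calb1, −0.12 to 0.20 for Calb2, −0.22 to 0.11 for Pvalb, −0.08 to 0.21 for Hpca and −0.22 to 0.15 for Ncald. For each gene a 1.5-fold change in either direction lay outside its interval, and the bound farthest from 0, that of Calb1, was 1.38-fold. Across the left-out arrays and the alternative tests and scalings without a covariate or block, the farthest bound was 1.46-fold for Calb1 and 1.21-fold or less for the other 4 genes. With fewer residual arrays, as when 5 arrays with low Xist were kept, the upper log2 bound of Calb1 was 0.70, which is past 1.5-fold. These are bulk samples, in which fewer cells of a type and less RNA per cell cannot be told apart, and RMA summaries can understate fold changes. The intervals therefore bound changes of the array signal and not of the RNA. Hpca and Ncald had FVB means of 5.98 and 5.82, not far above the median row mean of 5.33.

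**Figure D2:**
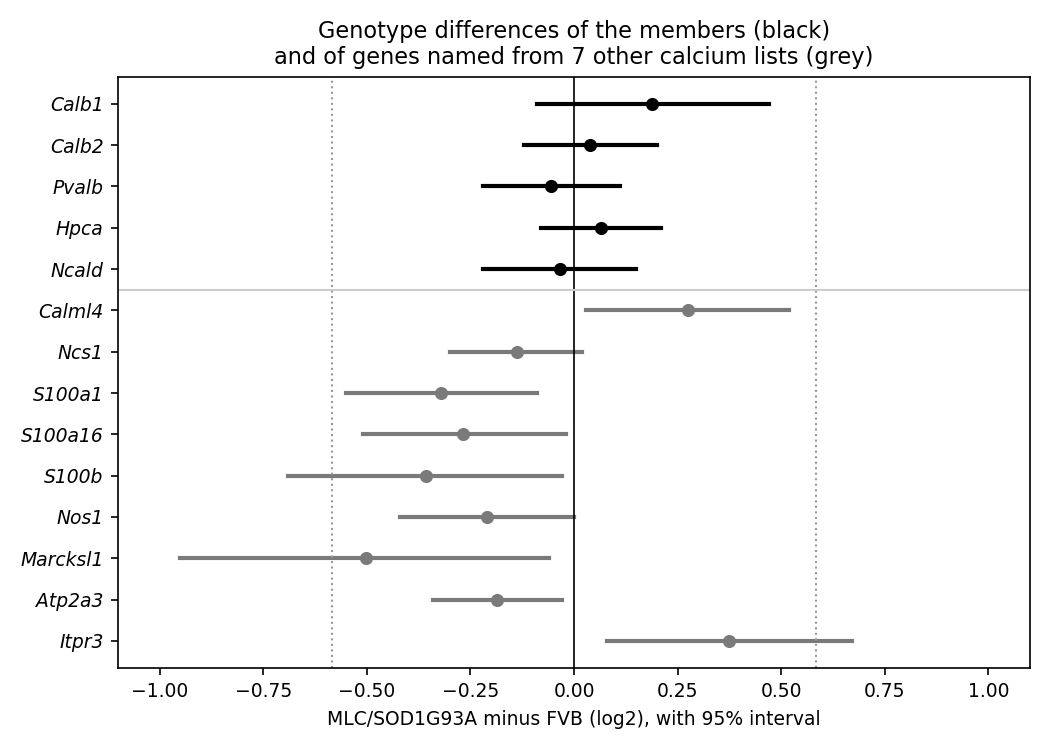
Differences in log2 signal, MLC/SOD1G93A minus FVB (points), with 95% intervals (lines), for the 5 measured members (black) and for the genes named from the other calcium lists (grey). Dotted lines mark a 1.5-fold change in either direction. The intervals of all 5 members cross 0 and stay inside the dotted lines, and those of S100b, Marcksl1 and Itpr3 pass them.

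The members did not move together from array to array. Over the 8 arrays, the Pearson correlation of log2 signals ran from −0.74 for Hpca with Pvalb to 0.61 for Calb2 with Pvalb, and it was 0.25 for the buffers Calb1 and Calb2 and −0.40 for Calb1 and Pvalb. These values describe 8 arrays that share a normalization and carry no test. The spread also differed. The pooled within-genotype SD was 0.18 for Calb1, 0.0974 for Ncald, 0.0706 for Pvalb and 0.067 for Calb2. In 52.7% of all transcript clusters this SD was below that of Calb1, against 18.0% for Ncald, 7.31% for Pvalb and 6.13% for Calb2.

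Genes that ran like each member were taken as the 3 highest Pearson correlations with it over the 8 arrays, among 13726 rows of 1 gene with a mean signal above the median row. For Calb1 these were Syt1, the calcium sensor of fast transmitter release (r = 0.986), Unc13a, which primes synaptic vesicles (r = 0.970), and 9530051G07Rik (r = 0.967). Syt1 was at 10.24, 10.33, 10.18 and 10.25 in FVB and 10.29, 10.47, 10.38 and 10.25 in MLC/SOD1G93A cord, highest on MLC/SOD1G93A replicate 2 and lowest on FVB replicate 3, as Calb1 was. For Calb2 they were D130040H23Rik (r = 0.949), Zfp449 and Vrk3 (both r = 0.933). Those for Pvalb were Prrg1 (r = 0.972), Nabp1 (r = 0.971) and Pias3 (r = 0.966). Hpca ran closest to Mettl4 (r = 0.948), Eva1c (r = 0.943) and Med17 (r = 0.940). Ncald ran closest to Greb1l (r = 0.940), Pgap3 (r = 0.928) and B9d1 (r = 0.923). Each is the top of 13726 correlations over only 8 arrays, and nothing about shared function or control was read from them.

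The members were set beside markers of the cells that could carry their RNA. Markers of dorsal root ganglion sensory neurons, the class that includes parvalbumin-positive proprioceptors, differed widely between arrays. The mean of the 13 measured markers was 5.36, 6.21, 5.31 and 6.31 on FVB replicates 1 to 4 and 6.73, 6.70, 5.26 and 5.36 on MLC/SOD1G93A replicates 1 to 4. Scn10a, a sodium channel of nociceptors, spanned 3.90 to 8.72. Pvalb was at 7.35, 7.38, 7.45 and 7.32 on the 4 arrays with a sensory mean above 6, those being replicates 2 and 4 of FVB and replicates 1 and 2 of the transgenic line. On the other 4 arrays it was at 7.41, 7.44, 7.35 and 7.23. The Pvalb signals of both sets of arrays overlapped, and with the sensory mean as a covariate the genotype difference of Pvalb was −0.0619, against −0.0562 without it. Runx3, a transcription factor of proprioceptors, was at 3.78 to 4.82 over the 8 arrays, below the median row mean of 5.33. The sensory list also holds nociceptor genes, so its mean does not follow proprioceptors alone, and their part in Pvalb was not tested.

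Calb1 and Calb2 are carried by dorsal horn neurons. The mean of 16 dorsal horn markers was 7.24, 7.26, 7.16 and 7.23 in FVB and 7.22, 7.41, 7.27 and 7.14 in MLC/SOD1G93A cord. It was highest on MLC/SOD1G93A replicate 2, the array with the highest Calb1, and its values on FVB replicate 3 and MLC/SOD1G93A replicate 4 were the lowest. Among 3 excitatory neuron markers, all vesicular glutamate transporters, Slc17a7 was at 6.41 on that array against 4.18 to 5.35 elsewhere, while Slc17a6 (9.71 there, 9.51 to 9.81 elsewhere) and Slc17a8 (5.55 there, 5.41 to 5.91 elsewhere) did not peak on it. Astrocyte markers were lowest on that array, at 9.26 against 9.54 to 9.74. With the dorsal horn mean as a covariate, the difference of Calb1 was 0.106 and that of Calb2 0.0283. The part of these cells in the Calb1 signal was not tested further.

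The other neuron classes and muscle overlapped between the genotypes. The mean of 10 pan-neuronal markers was 10.25 to 10.37 in FVB and 10.27 to 10.42 in MLC/SOD1G93A cord. Motor neuron markers (10 genes) were at 6.68 to 7.17 and 6.76 to 7.08, ventral interneuron markers (10 genes) at 5.47 to 5.54 and 5.42 to 5.56, and inhibitory neuron markers (4 genes) at 8.43 to 8.56 and 8.41 to 8.57. Of the 10 motor neuron markers, 8 were lower on average and 2 higher (log2 differences −0.23 to 0.12). By limma, 0 of them had an unadjusted p under 0.05. Prph, the most variable of these 10, spanned 6.35 to 7.90, so the mean need not follow each marker. Prph was highest on MLC/SOD1G93A replicate 1, the array with the highest sensory neuron mean (6.73). The part of sensory neurons in the motor neuron markers was not tested. Chrna2, the acetylcholine receptor subunit of Renshaw cells, was at 5.29 to 5.47 in FVB and 5.37 to 5.50 in MLC/SOD1G93A cord. Skeletal muscle, whose fast fibres also make parvalbumin, had a mean of 5.03 to 5.52 and 5.08 to 5.36 over 13 markers, and Myh4, the myosin of the fastest fibres, was at 3.27 to 4.30. Chrna2 thus lay near the median row mean of 5.33, and Myh4 below it.

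**Figure D3:**
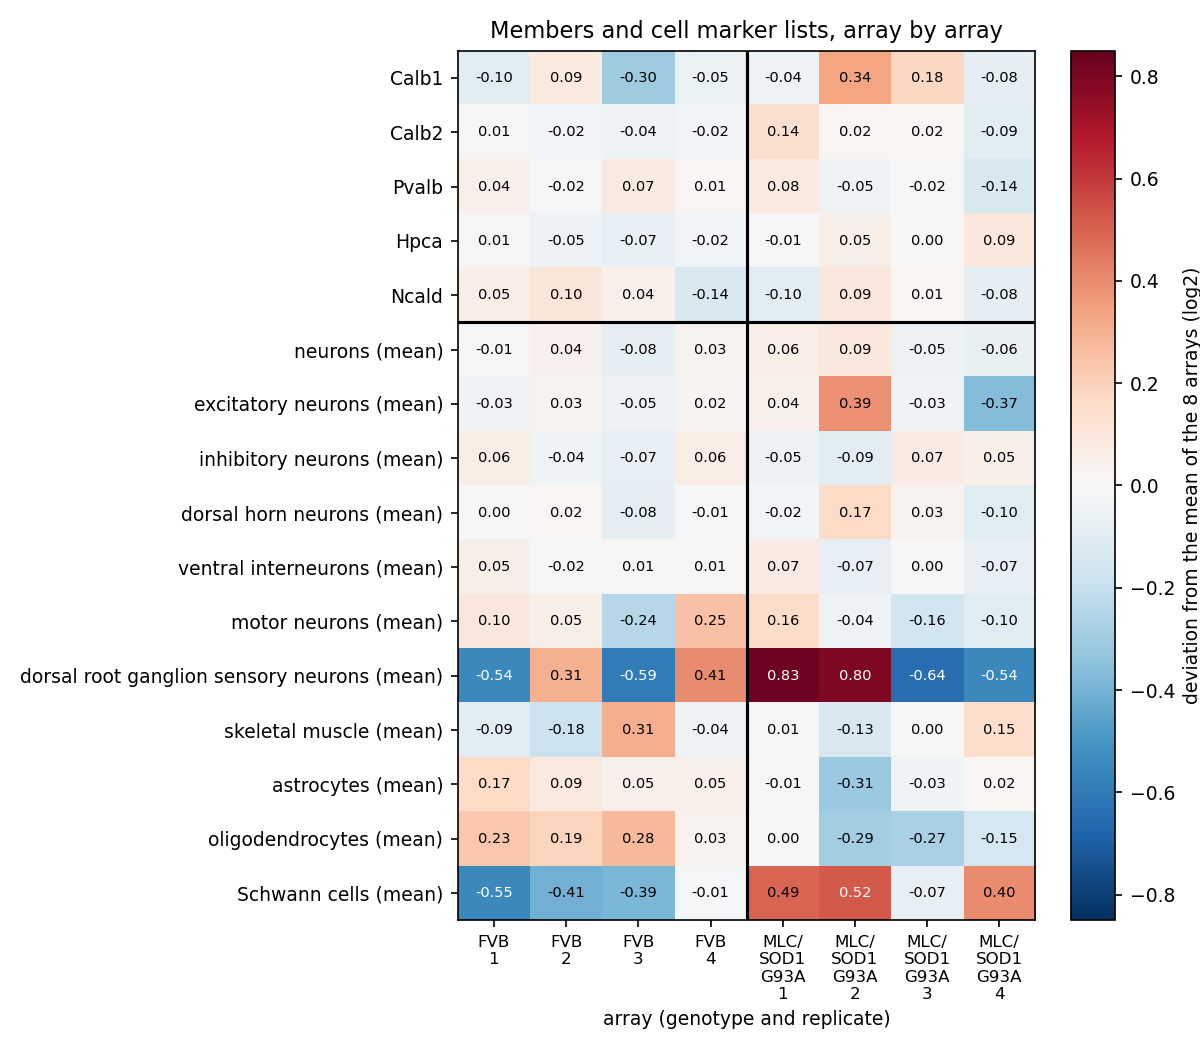
Deviation of each measured member, and of the mean of each marker list, from its own mean over the 8 arrays (colour and number, log2). Columns are arrays by genotype and replicate. Calb1 (8.02 to 8.66) has the strongest colours among the members, and the sensory neuron mean (5.26 to 6.73) among the lists.

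Xist, which female cells transcribe to silence an X chromosome, split the arrays, and the labels give no sex. Its signal reached at least 10.38 on 3 arrays (1 FVB and 2 MLC/SOD1G93A) and at most 4.50 on the other 5. Within the arrays with low Xist the log2 difference was 0.25 for Calb1, 0.10 for Calb2, −0.01 for Pvalb, 0.06 for Hpca and −0.07 for Ncald. Within those with high Xist, where FVB has 1 array, it was 0.09, −0.02, −0.09, 0.06 and 0.11 in the same order. Calb2 and Ncald thus changed sign between both sets. Over all transcript clusters, array pairs correlated at 0.978 to 0.986 within genotypes and 0.977 to 0.987 between them.

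Other genes of calcium binding and handling came from 7 lists of 101 genes, of which 96 were measured. Of these, 2 were higher and 6 lower at an unadjusted p under 0.05, or 8.33%, against the 6.70% of all transcript clusters given above, and 0 passed the adjusted threshold. Their median log2 difference was 0.0065, against 0.0041 over all clusters. The count depended on the arrays and the test, falling to 4 when replicate 1, 2 or 3 of FVB or replicate 3 of MLC/SOD1G93A was left out, to 5 without replicate 2 of MLC/SOD1G93A, and to 1 when the caudal Hox mean entered the fit. It was 12 with trend and robust moderation, and 10 by the methods' t-test or with rows above the median signal. The caudal Hox mean itself differed between the genotypes on average, so the count of 1 cannot be read as an effect of cord level. The genotypes did not overlap for 4 of the 96 genes (2 higher, 2 lower), or 4.17%, against 4.21% of all transcript clusters.

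Among relatives of the neuronal calcium sensors Hpca and Ncald, 6 of 11 were higher and 5 lower on average (median 0.03). An unadjusted p under 0.05 was reached by 0 of the 11, against 6.70% of all transcript clusters. Ncs1, a sensor that regulates transmitter release, had the lowest p in that list, at 9.61, 9.63, 9.57 and 9.59 in FVB and 9.58, 9.47, 9.45 and 9.35 in MLC/SOD1G93A cord. Its groups overlapped by a single array, MLC/SOD1G93A replicate 1, with a log2 difference of −0.14 ± 0.07 (SE, limma adjusted p = 0.776, exact permutation p = 0.0571). Hpcal1, hippocalcin-like protein, differed by −0.18 ± 0.11 (SE) and Vsnl1, visinin-like protein, by 0.03 ± 0.06 (SE). Among 4 calmodulin-like genes, all 4 were higher on average (median 0.16). Calml4 alone had an unadjusted p under 0.05, or 25.0% of so short a list, against 6.70% of all transcript clusters. Its log2 difference was 0.27 ± 0.11 (SE, limma adjusted p = 0.72). Calml3 (means 4.52 in FVB and 4.61 in MLC/SOD1G93A cord) and Calm5 (4.66 and 4.68) lay below the median row mean of 5.33. These calmodulin-like genes are relatives of calmodulin and say nothing of Calm2 or Calm3.

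The other small EF-hand genes were lower in 11 of 17 cases (median −0.08). At an unadjusted p under 0.05, 3 were lower and 0 higher, or 17.6%, against 6.70% of all transcript clusters. With 17 genes this share rests on few calls. The 3 genes were S100a1, S100a16 and S100b. Of the 9 S100 genes measured, 5 were lower on average and 4 higher (S100a4, S100a6, S100a10 and S100g, by 0.06 to 0.15). S100a1 (transcript cluster 17407354) was at 9.16, 9.12, 9.09 and 9.09 in FVB and 8.68, 8.61, 9.06 and 8.83 in MLC/SOD1G93A cord. Its groups did not overlap, with replicate 3 of MLC/SOD1G93A just below the FVB arrays, and the log2 difference was −0.32 ± 0.10 (SE, limma adjusted p = 0.684, exact permutation p = 0.0286). S100b, a protein of astrocytes and myelinating glia, was 1.28-fold lower on average (9.43 ± 0.22 to 9.07 ± 0.22, SD, n = 4) and S100a16 1.20-fold, both with overlapping groups. When the caudal Hox mean entered the fit, the log2 difference went from −0.36 to −0.0467 for S100b and from −0.27 to −0.0734 for S100a16, and was −0.428 for S100a1. That mean was itself higher on average in MLC/SOD1G93A cord, so cord level and genotype cannot be told apart there. Glial markers differed on the same arrays, with the mean of 9 oligodendrocyte markers at 9.74 to 9.99 in FVB and 9.42 to 9.71 in MLC/SOD1G93A cord and that of 9 astrocyte markers at 9.62 to 9.74 and 9.26 to 9.59. Their part in the S100 values was not tested. Scgn, the secretagogin relative of calbindin, was at 4.64 ± 0.14 and 4.53 ± 0.08 (SD, n = 4).

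The next lists hold targets of calmodulin. Of 22 calmodulin-regulated enzymes, 16 were higher on average and 6 lower (median 0.05). Only 1 had an unadjusted p under 0.05, or 4.55%, against 6.70% of all transcript clusters. It was Nos1, the neuronal nitric oxide synthase, at −0.21 ± 0.09 (SE, limma adjusted p = 0.742). The calcineurin catalytic genes Ppp3ca and Ppp3cb differed by 0.08 ± 0.06 and 0.12 ± 0.07 (SE), and Camk2a, a kinase of glutamatergic synapses, by 0.06 ± 0.12 (SE). Of 6 calmodulin-binding neuronal proteins, Marcksl1 had the largest difference, −0.50 ± 0.20 (SE, limma adjusted p = 0.714), with arrays from 6.77 to 7.20 in FVB and from 6.02 to 6.82 in MLC/SOD1G93A cord. The genotypes did not overlap for Camk2d, a calmodulin kinase, and Gap43, a growth cone protein that binds calmodulin, both named here after their values were seen. Camk2d was at 8.22 to 8.32 and 8.36 to 8.42, and Gap43 at 6.88 to 7.07 and 7.09 to 7.35. Their log2 differences were 0.13 ± 0.06 (SE, limma unadjusted p = 0.0662, adjusted p = 0.76) and 0.18 ± 0.08 (SE, limma unadjusted p = 0.0617, adjusted p = 0.751).

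Genes that clear or store calcium were near 0 as groups. Of 17 pump, exchanger and mitochondrial uptake genes, 11 were lower on average (median −0.01). Atp2a3, a calcium pump of the endoplasmic reticulum, had the only unadjusted p under 0.05, or 5.88%, against 6.70% of all transcript clusters. Atp2a3 was at 5.93, 5.97, 5.95 and 5.91 in FVB and 5.67, 5.75, 5.86 and 5.74 in MLC/SOD1G93A cord, without overlap (−0.19 ± 0.07, SE, limma adjusted p = 0.686). The plasma membrane pump Atp2b2, which works beside the buffers in neurons, differed by −0.09 ± 0.10 (SE). Of 19 store genes, 11 were higher on average (median 0.02), and Itpr3, an inositol trisphosphate receptor, was 1.30-fold higher (limma adjusted p = 0.684). Itpr3 was at 6.53, 6.44, 6.59 and 6.75 in FVB and 7.18, 7.05, 6.62 and 6.96 in MLC/SOD1G93A cord. Its highest arrays, MLC/SOD1G93A replicates 1 and 2, also had the highest Schwann cell means (7.83 and 7.86, 6 markers). The same arrays had the highest sensory neuron means (6.73 and 6.70). With the sensory mean as a covariate, the log2 difference of Itpr3 was 0.335, against 0.374 without it. The Schwann cell mean was 6.79 to 7.33 in FVB and 7.27 to 7.86 in MLC/SOD1G93A cord. The part of these cells in Itpr3 was not tested further.

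**Figure D4:**
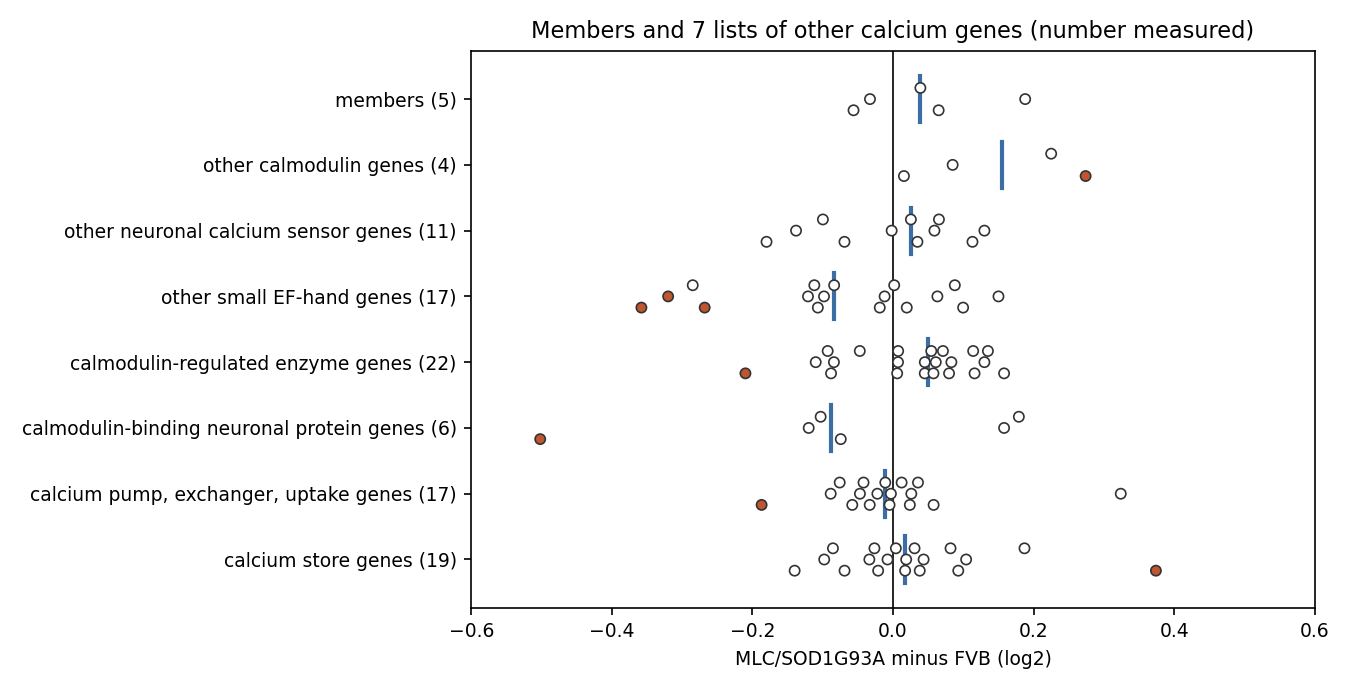
Difference in log2 signal, MLC/SOD1G93A minus FVB, of each measured gene (points) in the member set and in the 7 lists of other calcium genes, with the number measured in brackets and the list median as a blue line. Filled points have a limma unadjusted p under 0.05, which 0 of the 5 members and 8 of the 96 other genes have.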

How the data were processed

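The authors deposited log2 signals for each transcript cluster of Affymetrix Mouse Gene 2.0 ST arrays. They were made by RMA with sketch quantile normalization, per the methods of the study and the notes of the submitters, which hides a shift shared by most transcripts. Versions, filters and build were not given in the sources here, and coordinates were therefore left out. The values were used unchanged. Arrays give no read depth, and their number limits the precision. Symbols came from the platform annotation, with 23521 clusters carrying 1 symbol, 1820 several and 16004 none. List symbols matched in 229 of 249 cases, and the brightest 1-symbol row stood for a gene.

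Genotypes were compared unpaired in R 4.3.3 with limma 3.58.1 over all 41345 clusters, and single genes also by an exact two-sided permutation test over 70 relabellings. P-values set a genotype difference against the spread between these samples, and that spread may be technical. Members and lists were chosen with earlier results of these data known. Named genes were all members, genes of each other calcium list with an unadjusted p under 0.05 (otherwise the lowest p), markers of widest range, and the 3 most alike rows per member. Ranges of other listed genes were added for context after their values were seen. The fit was tested on simulated data, and 21 alternatives were tried. Same-numbered replicates deviated together in 2 of 4 pairs (r from −0.083 to 0.242), and differently numbered ones had r from −0.249 to 0.156. Deviations were taken from each genotype's own mean, so this check cannot exclude a pairing by number, and the comparison was left unpaired.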

Additional observations from a re-analysis of the deposited data

Results flagged for a closer look

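Of 56 groups of 4 arrays looked at (members, genes named from the other calcium lists and marker list means), 1 held an array far from the others, and chance flags about 1 group in 20. The mean of the astrocyte markers was 9.26 on MLC/SOD1G93A replicate 2, with the next lowest array of that genotype at 9.54. No member was flagged on any array.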

How the results depend on the processing

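The differences of Calb1, Calb2, Pvalb and Hpca kept their direction under all 21 alternatives and that of Ncald under 20. Several alternatives could not change a difference, as they use the same values of the same arrays. These were the replicate block, the methods' t-test, trend and robust moderation, and the fits to fewer rows. No member and no transcript cluster passed the adjusted threshold under any of the 21 alternatives. No member reached an unadjusted p under 0.05, the lowest being 0.0652 for Hpca by the methods' t-test. With the caudal Hox covariate Ncald turned to 0.0844 and the cause was not tested. That covariate itself differed between the genotypes on average, so fits with it cannot tell cord level and genotype apart. Leaving out single arrays moved Calb1 between 0.107 and 0.247, Calb2 between 0.00059 and 0.0757, Pvalb between −0.0935 and −0.0197, Hpca between 0.0461 and 0.0791, and Ncald between −0.085 and −0.00209. The replicate block left the differences as they were (0.188 for Calb1, unadjusted p = 0.147 by limma) and gave 6 other calcium genes at an unadjusted p under 0.05, against 8. That count was 4 to 9 with single arrays left out, 5 with the Xist or the dorsal horn covariate, 1 with the caudal Hox covariate and 12 with trend and robust moderation. The median of the other calcium genes was −0.00999 with the caudal Hox covariate and between −0.00854 and 0.0104 with single arrays left out. Clusters at an unadjusted p under 0.05 numbered 2769, and 1837 when those below the median signal were dropped, which tests fewer clusters. The methods' t-test put 267 clusters past its own thresholds, 0 of them members, against 401 by limma, and 0 after Benjamini-Hochberg adjustment. The arrays with low Xist alone, an alternative chosen after seeing the data, kept all 5 directions. Each member has 1 row, so another row could not be tried.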
